A study of Homo sapiens with 6 samples.

Results

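The genes described here are the mucin-type and sialyl glycosyltransferases, measured in the human pancreatic cancer line YAPC with and without induced GLI2. The family was chosen with earlier results of these data known. Its members were taken by name alone, as the genes called GALNT, GALNTL, B3GNT, B4GALT, B3GALT, GCNT, FUT, ST3GAL, ST6GAL, ST6GALNAC or ST8SIA with a number, plus C1GALT1 and its chaperone C1GALT1C1. This gave 76 of the 25442 genes in the RNA-seq table, and 49 of them averaged 1 FPKM or more across the 6 libraries and were tested. FPKM is fragments per kilobase of transcript scaled to the mapped fragments of the library, so levels of different genes can be compared per length. All cells carried rtta, the activator that turns on a tight promoter in the presence of doxycycline (Dox), and all were kept in Dox for 6 days. The 3 iEV libraries came from YAPC-rtta-EV cells with the empty pRetroX-Tight-Puro vector, and the 3 iGLI2 libraries came from YAPC-rtta-GLI2 cells with the same vector holding human GLI2, a transcription factor of the Hedgehog pathway. GLI2 was therefore expressed from the Dox-responsive promoter of a retroviral vector, and whether each line was a pool or a clone is not given in the sources used here. Nothing in the labels says that the 3 libraries of a group came from separate cultures, so p-values measure only the spread between these samples, which may be technical.

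Mucin-type O-glycans are built 1 sugar at a time in the Golgi. A GALNT enzyme first attaches N-acetylgalactosamine (GalNAc) to a serine or threonine, and the sugar is then extended to core 1 by C1GALT1, to core 3 by B3GNT6, or branched by GCNT enzymes. B3GNT and B4GALT enzymes lengthen chains on O-glycans, N-glycans and glycolipids. Most FUT enzymes and the sialyltransferases add fucose and sialic acid at chain ends, while FUT8 adds the core fucose of N-glycans. Ductal cells of the pancreas and the cancers arising from them are known for mucins that carry such glycans, among them the sialylated Lewis antigens followed in the clinic.

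GLI2 itself, which checks the labels, (values in FPKM, replicates 1 to 3 in order) stood at 0.466, 0.412 and 0.344 in iEV against 94.5, 207 and 195 in iGLI2, so iGLI2 replicate 1 held 0.47 of the mean of the other two. The ductal markers KRT7, KRT19, EPCAM and CDH1 were all high, while KRT8 and KRT18 were listed at 0 in every library, so that a 0 in this table was not read as absence. Fibroblast, endothelial and leukocyte markers were low, with 6 of 7, 4 of 4 and 3 of 4 under 1 FPKM in every library. Summed fibroblast markers ran from 1.51 to 1.63 FPKM in iEV and from 2.4 to 3.09 FPKM in iGLI2, nearly all of it COL1A1 (means of 1.41 and 2.69 FPKM), with DCN at 0 in every library. Summed acinar markers ran from 5.18 to 13.3 FPKM in iEV and from 2.71 to 4.4 FPKM in iGLI2, nearly all of it PRSS1 (means of 10.2 and 3.6 FPKM), with CPA1 at 0 in every library. The part of these markers in the results was not tested. FPKM summed over all genes ran from 981344 to 1082687 in iEV and from 803149 to 889559 in iGLI2. Read depth is unknown, since FPKM keeps no read number, and a lower level in a bulk sample cannot be told apart as fewer cells with the transcript or less RNA per cell.

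Of the 49 tested genes, 16 differed between iGLI2 and iEV at an adjusted p under 0.05 in limma, which is 32.7% against 21.9% of all 12493 genes tested. Of these, 11 were higher in iGLI2 (22.4%, against 10.1% of all genes) and 5 were lower (10.2%, against 11.8%). A further measure, the number of genes whose 3 iGLI2 values did not overlap the 3 iEV values, was 30 of 49 (61.2%, against 42% of all genes), and it included each of the 16. At least a 2-fold difference on the log2(FPKM + 1) scale was seen in 7 of the 16, namely B3GNT6, ST3GAL1, B3GNT7, ST6GALNAC2 and FUT8 in the higher direction and GALNT10 and FUT2 in the lower, a size that 4.22% of all genes passed together with the test. The median log2 fold change of the 49 genes was 0.04, against -0.01 over all genes. The count of 16 was 10 without iEV replicate 2 (20.4%, against 9.79% of all genes) and 22 without iGLI2 replicate 1 (44.9%, against 30% of all genes). It was 32 of 49 (65.3%, against 43.8% of all genes) when replicate 1 of both groups was left out, a choice made after seeing the data.

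**Figure D1:**
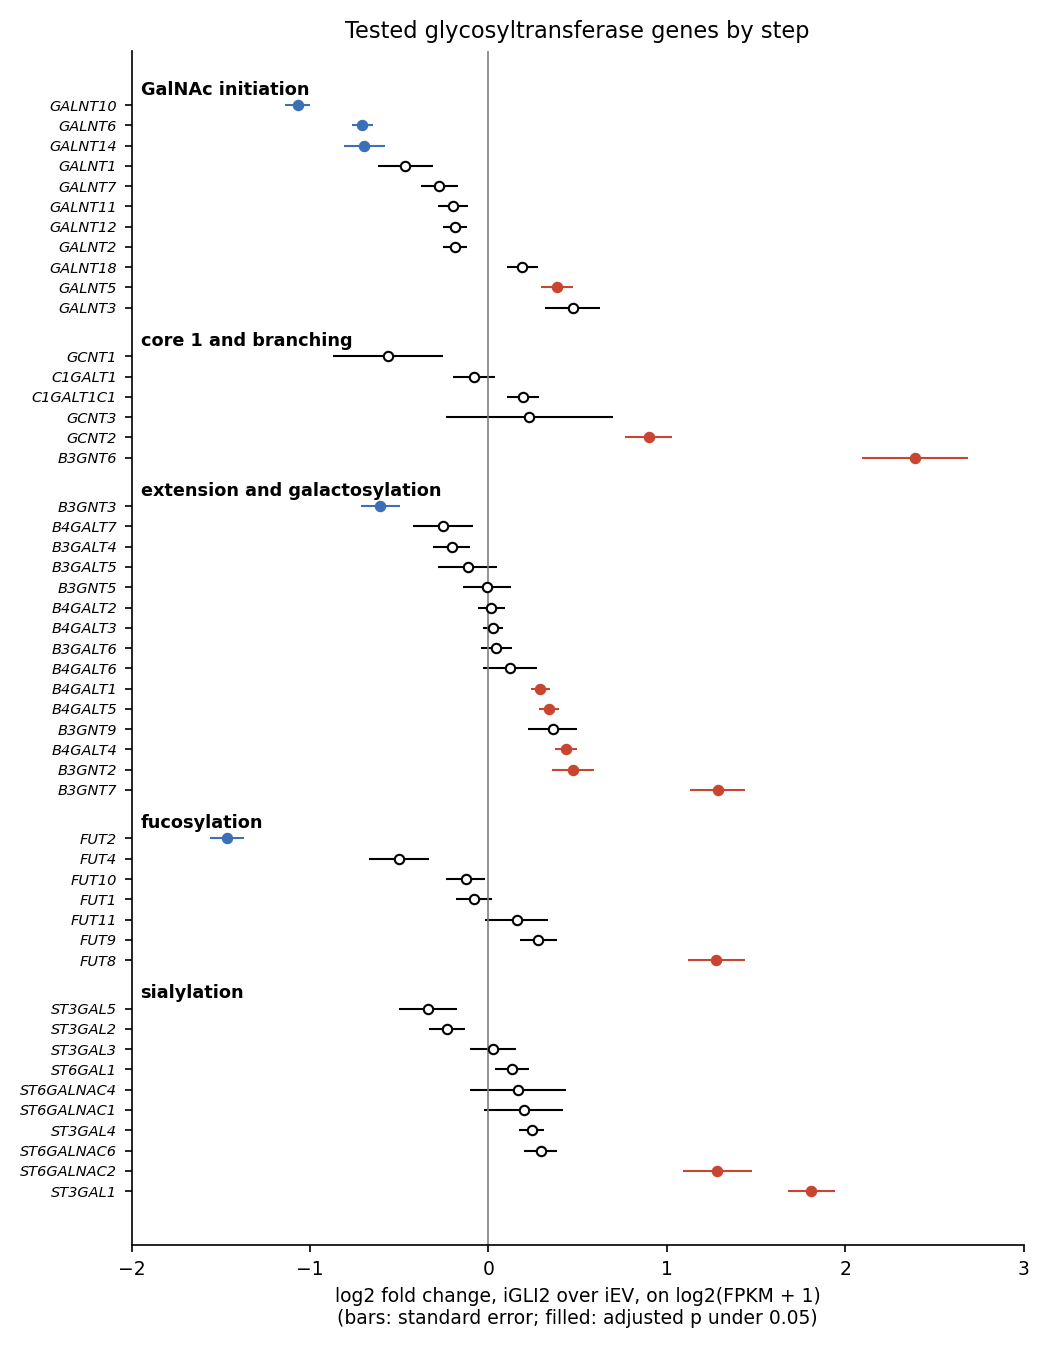
The log2 fold change of each of the 49 tested genes (points, iGLI2 over iEV on the log2(FPKM + 1) scale, horizontal axis) with its standard error (bars), grouped by step. Filled red and blue points are the 11 higher and 5 lower genes at an adjusted p under 0.05, and 8 of the 11 GalNAc initiation genes lie left of 0.

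**Figure D2:**
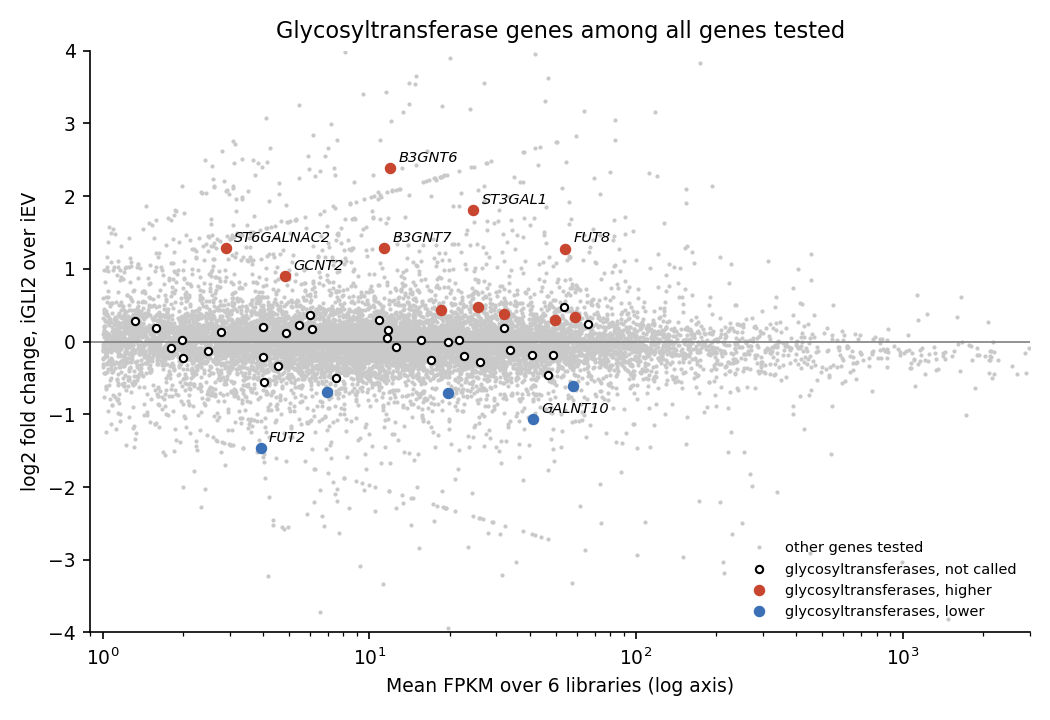
The same genes over all 12493 genes tested (grey), by mean FPKM over the 6 libraries (horizontal, log axis) and log2 fold change (vertical). B3GNT6 and ST3GAL1 stand highest and FUT2 lowest among the glycosyltransferases, and 35 genes lie outside the axes.

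The start regions of 3 genes with large differences are printed to show what sequence lies before them. They are the called genes with a single start in the RefSeq promoter table that had the largest fold, 1 higher (B3GNT7) and 2 lower (FUT2 and GALNT10). RefSeq entries of GRCh38.p14 were found for 56 of the 76 genes and for 11 of the 16 called ones, and each line gives the 250 bases before the start on the gene's strand, 5′ to 3′, at chr2:231395460-231395709 (plus strand), chr19:48695721-48695970 (plus strand) and chr5:154190483-154190732 (plus strand). Capitals mark matches, on either strand, to the first 8 bases of the GLI binding consensus (GACCACCC) or to the E-box bound by ZEB and SNAI repressors (CACCTG), whose matches do not overlap here.
B3GNT7: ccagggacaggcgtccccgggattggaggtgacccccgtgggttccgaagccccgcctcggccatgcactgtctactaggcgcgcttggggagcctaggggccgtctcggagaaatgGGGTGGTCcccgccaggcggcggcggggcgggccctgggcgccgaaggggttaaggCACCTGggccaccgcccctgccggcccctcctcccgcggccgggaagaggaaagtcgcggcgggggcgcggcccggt
FUT2: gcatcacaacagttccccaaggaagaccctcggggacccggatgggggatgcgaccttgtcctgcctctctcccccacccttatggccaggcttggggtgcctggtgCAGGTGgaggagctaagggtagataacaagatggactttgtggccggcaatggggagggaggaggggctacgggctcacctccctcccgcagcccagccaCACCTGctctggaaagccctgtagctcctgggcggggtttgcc
GALNT10: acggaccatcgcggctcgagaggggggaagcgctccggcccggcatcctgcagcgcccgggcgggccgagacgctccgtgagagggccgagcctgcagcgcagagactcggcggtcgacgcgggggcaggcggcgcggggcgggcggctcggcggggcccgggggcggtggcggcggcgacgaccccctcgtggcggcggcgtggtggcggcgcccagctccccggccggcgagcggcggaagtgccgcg
The 8-base GLI word occurred in 0.849% of all 35116 promoters of this length and in 1 of 90 promoters of the 56 genes, that of B3GNT7, at bases -133 to -126. The full 9-base consensus, GACCACCCA, occurred in 0.199% of all promoters and in 0 of the 90. The E-box word was found in 17.5% of all promoters and in 17 of the 90 (18.9%), before 16 of the 56 genes. Of the 19 promoters of called genes 5 held it, those of B3GNT7, FUT8 and GCNT2 (higher) and of FUT2 and GALNT14 (lower). In the FUT2 line both capitalised stretches are E-box words, at -143 to -138 and -43 to -38, and the GALNT10 line holds no match. GC content was 75.6%, 64% and 82.4% in the 3 lines in the order printed, against a median of 58% over all promoters.

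The GalNAc initiation step was lower in iGLI2 in summed level, although its genes did not all lie in 1 direction. The 18 listed genes summed to 361 to 380 FPKM in the iEV libraries and to 302 to 339 FPKM in the iGLI2 libraries. All 11 tested GALNT genes had groups that did not overlap (against 42% of all genes), 8 with a negative and 3 with a positive fold change (median -0.20). Of the 11, 4 were called (36.4%, against 21.9% of all genes), 3 lower (27.3%, against 11.8%) and 1 higher (9.09%, against 10.1%). GALNT10, which adds GalNAc to peptides that already carry one, gave the largest decrease of the step. It measured 54.9, 57.1 and 56.7 FPKM in iEV replicates 1 to 3, in that order as throughout, and 28.7, 25 and 25.3 FPKM in the iGLI2 libraries. All iGLI2 values lay far below all iEV values, and the gene fell by 1.07 on the log2 scale (SE 0.07, limma adjusted p = 0.000554). In the annotation an exon of GALNT10 (chr5:153570295-153825382, hg19) overlaps MFAP3 on the same strand, and whether reads were shared between them was not tested.

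GALNT6, a GalNAc-transferase that is best known from breast and other carcinomas, read 23.9, 26.1 and 24.5 FPKM in iEV and 15.2, 14.6 and 14.6 FPKM in iGLI2. The iGLI2 libraries were almost equal and all lay below iEV, with a decrease of 0.71 on the log2 scale (log2 fold change -0.71, SE 0.06, limma adjusted p = 0.000968). Its exons overlap SLC4A8 on the opposite strand, and strand use in the authors' counting is not given in the sources used here. GALNT14, a relative of GALNT2, read 7.42, 9.63 and 9.54 FPKM in iEV and 4.58, 5.46 and 5.14 FPKM in iGLI2. Replicate 1 was the lowest library of both groups, and the groups stayed apart (log2 fold change -0.70, SE 0.11, limma adjusted p = 0.0102), with adjusted p = 0.0503 and 0.0517 without iEV replicate 2 and iEV replicate 3. GALNT5 was the 1 initiating enzyme called higher, going from 31.2, 25.7 and 26.5 FPKM to 38.1, 34.3 and 36.9 FPKM. The lowest iGLI2 library exceeded the highest iEV library by little, the log2 fold change was 0.38 (SE 0.09, limma adjusted p = 0.033), and it missed the threshold without any 1 of iEV replicates 2 and 3 and iGLI2 replicates 1, 2 and 3 (adjusted p between 0.055 and 0.12).

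The 2 most abundant GALNT genes outside the calls went opposite ways. GALNT3, which also glycosylates the hormone FGF23, averaged 44.9 ± 8.46 FPKM (SD, n = 3) in iEV and 62.3 ± 7.77 FPKM in iGLI2 (log2 fold change 0.47, SE 0.15, limma adjusted p = 0.0795, and 0.0314 without iEV replicate 1). With any other single library left out, the limma adjusted p of GALNT3 lay between 0.136 and 0.226. GALNT2, a broadly expressed initiator, averaged 52.2 ± 2.53 and 45.8 ± 2.36 FPKM (log2 fold change -0.19, SE 0.07, limma adjusted p = 0.109). The GALNT3 to GALNT10 ratio, taken within each library, was 0.992, 0.727 and 0.681 in iEV and 2.48, 2.29 and 2.31 in iGLI2. GALNT3 was thus the less abundant of the pair in every iEV library and the more abundant in every iGLI2 library. The ratio could not overlap between groups, since both genes were already apart in opposite directions. GALNT10 made up 15.3% of the step's FPKM in iEV and 8.35% in iGLI2, and GALNT3 made up 12.2% and 19.7%. GALNT1, another broadly expressed initiator, missed the threshold (limma adjusted p = 0.0826) but passed it without iGLI2 replicate 1 (adjusted p = 0.00926). It missed it by more with any other single library left out (limma adjusted p between 0.161 and 0.222).

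Core formation and branching had 2 of 6 tested genes called (33.3%, against 21.9% of all genes), both higher (median log2 fold change 0.21), and summed to 56.5 to 61.4 FPKM in iEV and 77.2 to 88.4 FPKM in iGLI2. B3GNT6, the synthase of core 3, gave the largest difference of all the tested glycosyltransferases. It stood at 2.62, 3.16 and 3.16 FPKM in iEV, against 11.8, 24.3 and 26.8 FPKM in iGLI2. The group means were 2.98 ± 0.312 and 21 ± 8.04 FPKM (SD, n = 3), a ratio of 7.04, with a log2 fold change of 2.39 (SE 0.30, limma adjusted p = 0.00373). All iGLI2 libraries were above all iEV libraries, and replicate 1 was the lowest library of both groups. The gene lies at chr11:76745385-76753005 (hg19) and shares no exon with another coding gene in the annotation.

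C1GALT1, the enzyme that makes the competing core 1, averaged 13 ± 1.68 FPKM in iEV and 12.2 ± 1.44 FPKM in iGLI2 (log2 fold change -0.08, SE 0.12, limma adjusted p = 0.676). Its chaperone C1GALT1C1 averaged 29.7 ± 0.294 and 34.2 ± 3.95 FPKM (log2 fold change 0.19, SE 0.09, limma adjusted p = 0.183). The ratio of B3GNT6 to C1GALT1 was 0.177, 0.251 and 0.274 in the iEV libraries and 0.85, 2.11 and 2.38 in the iGLI2 libraries. In transcript level per length, the core 3 enzyme was below the core 1 enzyme in all 3 iEV libraries and in iGLI2 replicate 1, and above it in iGLI2 replicates 2 and 3.

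Of the GCNT genes, GCNT2, which makes the I branch on poly-N-acetyllactosamine chains, rose. It read 2.56, 3.24 and 3.38 FPKM in iEV and 5.48, 7.34 and 6.89 FPKM in iGLI2. The groups did not overlap, replicate 1 was the lowest library in both, and the log2 fold change was 0.90 (SE 0.13, limma adjusted p = 0.00633). GCNT1, the main core 2 enzyme, was not called, with 7.16, 3.93 and 3.89 FPKM in iEV and 4.76, 2.44 and 2.09 FPKM in iGLI2 (log2 fold change -0.56, SE 0.31, limma adjusted p = 0.252). Exons of GCNT1 overlap PRUNE2 on the opposite strand. GCNT3, the core 2 and core 4 enzyme of mucin-secreting tissues, was not called either, with 3.58, 5.16 and 4.94 FPKM against 1.99, 8.41 and 8.57 FPKM (log2 fold change 0.23, SE 0.47, limma adjusted p = 0.764). In GCNT1 replicate 1 was far above, and in GCNT3 below, the other libraries of the same group. Without iGLI2 replicate 1 alone the GCNT3 log2 fold change was 0.78 (adjusted p = 0.0182). It was -0.04 without iGLI2 replicate 2 and -0.05 without iGLI2 replicate 3 (limma adjusted p = 0.966 and 0.954).

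**Figure D3:**
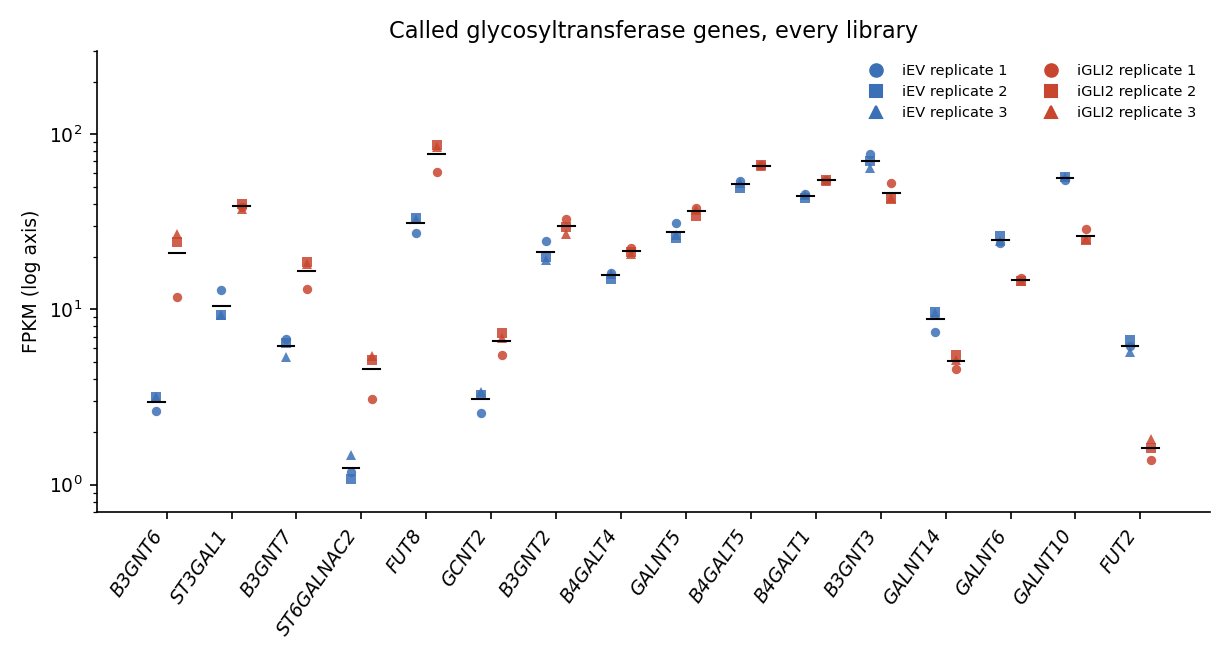
FPKM (vertical, log axis) of the 16 called genes in each library, iEV in blue and iGLI2 in red, with a symbol for each replicate number and a black bar at the group mean. No gene has overlapping groups, and iGLI2 replicate 1 (red circle) lies apart from the other red points in B3GNT6, ST6GALNAC2, FUT8 and B3GNT7.

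Chain extension and galactosylation, the step with the most tested genes, had 6 of 15 called (40%, against 21.9% of all genes), 5 higher (33.3%, against 10.1%) and 1 lower (median log2 fold change 0.04), and its summed level overlapped between groups (334 to 366 FPKM in iEV, 361 to 380 FPKM in iGLI2). B3GNT7, which extends poly-N-acetyllactosamine and keratan sulfate chains and whose promoter is printed above, measured 6.75, 6.47 and 5.34 FPKM in iEV and 13, 18.7 and 18.2 FPKM in iGLI2. Every iGLI2 library was well above every iEV library, and the gene rose 2.69 times (log2 fold change 1.29, SE 0.15, limma adjusted p = 0.00336). B3GNT2, the main poly-N-acetyllactosamine synthase, measured 24.5, 20 and 19.1 FPKM in iEV and 32.8, 29.5 and 27 FPKM in iGLI2. Its groups were separate but close (log2 fold change 0.47, SE 0.12, limma adjusted p = 0.0375), and the call was lost without any 1 of iEV replicates 2 and 3 and iGLI2 replicates 1, 2 and 3 (adjusted p between 0.0642 and 0.134).

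B3GNT3, which extends core 1 and contributes to L-selectin ligands, was the most abundant gene of the step in iEV and was lower in iGLI2. It read 76.7, 70.6 and 64.4 FPKM in iEV and 52.7, 42.5 and 43.2 FPKM in iGLI2. Replicate 1 was the highest library of both groups, and the lowest iEV value exceeded the highest iGLI2 value (log2 fold change -0.61, SE 0.11, limma adjusted p = 0.0142). Adjusted p ran from 0.0569 to 0.0636 without iEV replicate 2, iGLI2 replicate 2 or iGLI2 replicate 3. B3GNT3 made up 20.3% of the summed FPKM of the step in iEV and 12.5% in iGLI2.

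Most of the B4GALT enzymes add galactose to N-acetylglucosamine or glucose, and 3 of the B4GALT genes rose by small amounts with little spread. B4GALT4 went from 16.2, 14.9 and 15.9 FPKM to 22.4, 21.2 and 20.8 FPKM (log2 fold change 0.43, SE 0.06, limma adjusted p = 0.00576). B4GALT5, a lactosylceramide synthase, went from 54.2, 49.6 and 52.9 FPKM to 66.7, 66.4 and 65.7 FPKM (log2 fold change 0.34, SE 0.06, limma adjusted p = 0.0115). The 3 iGLI2 values were nearly equal in both genes and lay above all iEV values. B4GALT1, the most general of these enzymes, went from 45.5, 43.5 and 44.9 FPKM to 55.2, 55 and 54.3 FPKM (log2 fold change 0.29, SE 0.05, limma adjusted p = 0.0132). Its call was lost without iEV replicate 2, iEV replicate 3 or iGLI2 replicate 2 (adjusted p between 0.0521 and 0.0688), and that of B4GALT5 without iEV replicate 2 or iGLI2 replicate 2 (adjusted p = 0.0553 and 0.0521). Among genes not called, B3GALT5, which makes type 1 chains, averaged 35 ± 6.08 and 32.3 ± 5.81 FPKM (log2 fold change -0.12, SE 0.17, limma adjusted p = 0.658). B4GALT3 averaged 21.5 ± 0.527 and 21.9 ± 0.862 FPKM (log2 fold change 0.02, SE 0.06, limma adjusted p = 0.786), and its exons overlap PPOX on the opposite strand.

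Of 7 tested fucosyltransferases, 1 was higher, 1 was lower and 5 were not called (28.6% called, against 21.9% of all genes, median log2 fold change -0.08). FUT8, which adds the core fucose of N-glycans and takes no part in mucin-type O-glycans, measured 27.3, 33.3 and 32.7 FPKM in iEV, against 61, 86.6 and 84.9 FPKM in iGLI2. Replicate 1 was the lowest of both groups and the groups were far apart, with means of 31.1 ± 3.31 and 77.5 ± 14.3 FPKM (SD, n = 3), a ratio of 2.49 and a log2 fold change of 1.28 (SE 0.16, limma adjusted p = 0.00367). The gene spans chr14:65877310-66210839 (hg19). FUT2, the secretor enzyme that makes the H antigen of epithelia and whose promoter is printed above, measured 6.19, 6.7 and 5.75 FPKM in iEV and 1.39, 1.62 and 1.83 FPKM in iGLI2. All 3 iGLI2 libraries were low and lay within 1 FPKM of each other, and the gene fell by 1.46 on the log2 scale (SE 0.09, limma adjusted p = 0.000484), the smallest p among the glycosyltransferases. Its level in iGLI2 was 0.26 of that in iEV, and it lies at chr19:49199228-49209191 (hg19).

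Summed fucosyltransferase transcript was 62.9 to 64.1 FPKM in iEV and 92.7 to 111 FPKM in iGLI2. FUT8 alone made up 48.8 ± 4.72% of it in iEV and 74.2 ± 7.19% in iGLI2 (SD, n = 3), and FUT2 made up 9.76% and 1.55%. FUT4, which makes Lewis x structures, was not called, at 8.94 ± 1.29 and 6.09 ± 1.49 FPKM (log2 fold change -0.50, SE 0.17, limma adjusted p = 0.0868, and 0.0159 without iGLI2 replicate 1). Its limma adjusted p was 0.15 to 0.235 with any other single library left out. FUT11 averaged 11.1 ± 1.62 and 12.6 ± 3.04 FPKM (log2 fold change 0.16, SE 0.18, limma adjusted p = 0.568). An exon of FUT4 overlaps PIWIL4 on the same strand. FUT3, FUT5 and FUT6, near-identical neighbours that make Lewis antigens, were all under the filter of 1 FPKM, and their values are uncertain since the authors' counting could split reads between them.

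Of 10 tested sialyltransferases 2 were called, both higher, a share (20%) near the 21.9% of all genes (median log2 fold change 0.18), and the listed sialyltransferases summed to 103 to 105 FPKM in iEV and 140 to 158 FPKM in iGLI2. ST3GAL1, which caps core 1 with sialic acid on its galactose and so blocks core 2 branching, measured 12.9, 9.24 and 9.25 FPKM in iEV and 38.6, 40.2 and 37.4 FPKM in iGLI2. Its 3 iGLI2 values were close to each other and each far above every iEV value. The means were 10.5 ± 2.1 and 38.7 ± 1.4 FPKM (SD, n = 3), a ratio of 3.7, with a log2 fold change of 1.81 (SE 0.13, limma adjusted p = 0.000693). The ratio of ST3GAL1 to C1GALT1, the enzyme that makes its acceptor, was 0.87, 0.736 and 0.803 in iEV and 2.78, 3.49 and 3.32 in iGLI2. ST6GALNAC2, which adds sialic acid to the GalNAc of core 1, measured 1.18, 1.07 and 1.47 FPKM in iEV and 3.07, 5.16 and 5.41 FPKM in iGLI2. The gene was low but separate in the groups, with iGLI2 replicate 1 nearest to iEV (log2 fold change 1.28, SE 0.19, limma adjusted p = 0.00732), and its exons overlap an unnamed coding gene on the same strand in the annotation.

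ST3GAL4, which sialylates N-acetyllactosamine chains, was the most abundant sialyltransferase in both groups, at 60.3 ± 2.17 FPKM in iEV and 71.6 ± 4.16 FPKM in iGLI2. Its values did not overlap, but the test was just outside the threshold (log2 fold change 0.24, SE 0.07, limma adjusted p = 0.0525), and inside it without iGLI2 replicate 1 (adjusted p = 0.0136). Leaving out any other single library gave a limma adjusted p from 0.0824 to 0.159. ST3GAL4 made up 58% of the summed level in iEV and 47.3% in iGLI2, and ST3GAL1 made up 10.1 ± 1.99% and 25.6 ± 1.96%. ST6GALNAC6, which acts mainly on glycolipids, averaged 9.74 ± 0.918 and 12.2 ± 0.966 FPKM (log2 fold change 0.29, SE 0.09, limma adjusted p = 0.0711, and 0.0373 without iGLI2 replicate 1). With any other single library left out, its limma adjusted p was 0.118 to 0.212. Exons of ST6GALNAC6 overlap an unnamed coding gene on the same strand. ST6GALNAC1, the sialyl-Tn synthase and a gene of the classical subtype signature used by the study, read 3.06, 3.81 and 3.86 FPKM in iEV and 2.8, 4.5 and 5.84 FPKM in iGLI2. Its groups overlapped, and it was not called (log2 fold change 0.20, SE 0.22, limma adjusted p = 0.566).

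Below the filter of 1 FPKM lay 27 genes, 19 of them under 0.3 FPKM in every library and 3 (FUT7, GALNT8 and ST8SIA3) listed at 0 in every library. The highest single value among the 27 was 2.66 FPKM, in ST3GAL6. This enzyme, which contributes to sialyl Lewis x, read 0.161, 0.259 and 0.238 FPKM in iEV and 2.66, 1.3 and 1.18 FPKM in iGLI2, and its exons overlap DCBLD2 on the opposite strand. ST6GALNAC3, which adds sialic acid to sialylated core 1 and gangliosides, read 0.101, 0.0383 and 0.0297 FPKM and 0.525, 1.19 and 0.833 FPKM. ST6GALNAC5, a ganglioside sialyltransferase, read 0.247, 0.682 and 0.386 FPKM and 0.0452, 0.0398 and 0.0447 FPKM. The first 2 were higher and ST6GALNAC5 lower than every iEV library in every iGLI2 library, and none was tested with the filter in place. GALNT4 is not counted here because the table holds it only in an entry merged with POC1B. That entry averaged 18.9 FPKM in iEV and 25.4 FPKM in iGLI2 (limma adjusted p = 0.0177), and the share of GALNT4 in it is unknown.

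iGLI2 replicate 1 was compared with the other two on the 16 called genes, since it held less GLI2. Relative to the iEV mean, B3GNT6 was 3.96 times as high in replicate 1 and 8.58 times in the mean of replicates 2 and 3, and ST6GALNAC2 was 2.48 and 4.26 times as high. ST3GAL1 was 3.69 and 3.71 times as high, so that its level was nearly equal in all 3 libraries. FUT2 stood at 0.224 of the iEV mean in replicate 1 and at 0.278 in replicates 2 and 3. In all, replicate 1 was nearer to iEV in 9 called genes and farther in 7. Some of these differences were very small, as in ST3GAL1 above, B4GALT1 (1.24 and 1.22) and B4GALT5 (1.28 and 1.27). The same count over all genes was not made. Replicate 1 also stood apart within both groups: it was the highest library of its group in iEV and in iGLI2 alike in 21 of 49 genes (42.9%, against 25.5% of all genes), and the lowest in both in 15 (30.6%, against 34.9%). The part of GLI2 level, or of another difference of replicate 1, in these values was not tested.

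**Figure D4:**
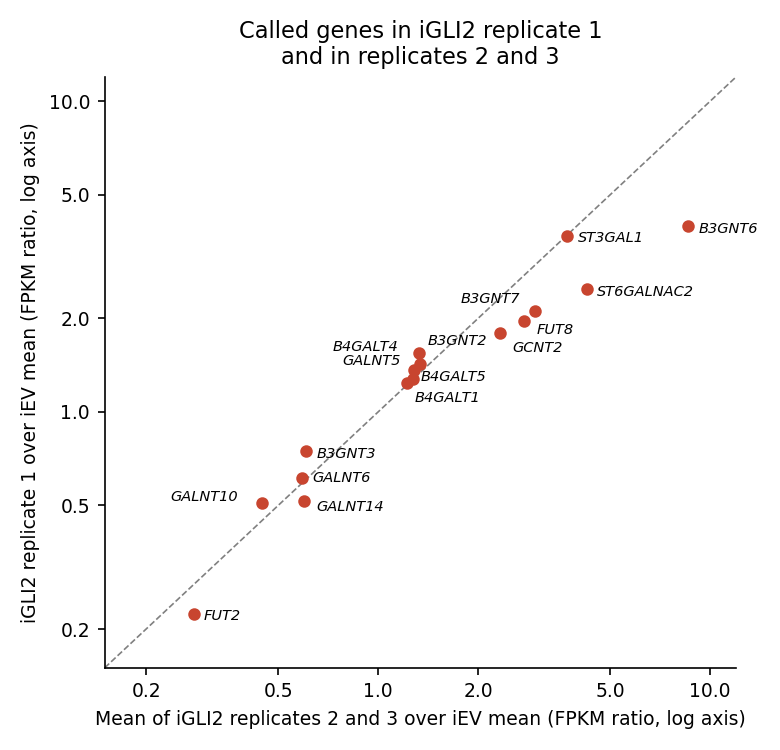
FPKM of the 16 called genes as a ratio to the iEV mean, for the mean of iGLI2 replicates 2 and 3 (horizontal, log axis) and for iGLI2 replicate 1 (vertical, log axis). On the dashed line both are equal, and B3GNT6 (8.58 and 3.96) lies farthest from it.

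Genes around the glycosyltransferases were taken as 5 lists, which held 16 calls in 54 tested genes (29.6%, against 21.9% of all genes). N-glycan branching held 3 calls in 6 tested genes (50%), 2 higher and 1 lower (median log2 fold change 0.01, against -0.01 over all genes). MGAT1, which opens the complex N-glycan pathway, was lower, from 134 ± 10.5 to 61.4 ± 10.8 FPKM (log2 fold change -1.13, SE 0.13, limma adjusted p = 0.0032). MGAT5, which makes the branch that carries poly-N-acetyllactosamine, was higher, from 16.9 ± 1.01 to 39.2 ± 0.603 FPKM (log2 fold change 1.17, SE 0.06, limma adjusted p = 0.000305). MGAT5B, its relative, was also higher, from 7.07 ± 0.714 to 15.3 ± 0.263 FPKM (limma adjusted p = 0.000848). The MGAT5 to MGAT1 ratio was 0.123, 0.125 and 0.13 in iEV and 0.53, 0.732 and 0.692 in iGLI2. This ratio could not overlap between groups, since both genes were already apart in opposite directions.

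The list of sugar nucleotide synthesis and transport had 1 higher and 4 lower of 22 tested (22.7%, against 21.9% of all genes) and a median log2 fold change of 0.03. UGP2, the UDP-glucose maker, rose from 52.7 to 69.8 FPKM (limma adjusted p = 0.0131). The lower genes were GMDS, the first enzyme toward GDP-fucose, at 30.3 and 21.1 FPKM (limma adjusted p = 0.00402), GNE, the entry enzyme of sialic acid synthesis, at 32.3 and 25.1 FPKM (adjusted p = 0.0366), and UAP1L1 and GALK2, with log2 fold changes of -0.68 and -0.64 (limma adjusted p = 0.0165 and 0.00302). Summed transcript of the list was nearly level, 492 to 500 FPKM in iEV and 498 to 516 FPKM in iGLI2. Of 9 tested genes for glycan removal only the lysosomal HEXA was called (11.1%, against 21.9% of all genes), lower (log2 fold change -0.30, list median -0.10, limma adjusted p = 0.0469). The 9 tested sulfotransferases and other capping enzymes (median 0.06) had 2 calls (22.2%, at the share of all genes). A4GALT, the globotriaosylceramide synthase, rose (3.06 to 5.65 FPKM, limma adjusted p = 0.0361) and B4GALNT3, which makes LacdiNAc, fell (6.43 to 2.55 FPKM, limma adjusted p = 0.00104).

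Proteins that carry or read these glycans had 5 of 8 tested genes called (62.5%, against 21.9% of all genes), 2 higher and 3 lower (median log2 fold change -0.21). The median includes MUC20, which was not called and read 76.6, 91.1 and 0 FPKM in iEV. Its log2 fold change of 0.94 (SE 1.75) rests on that 0, while its mean was 55.9 FPKM in iEV and 36.3 FPKM in iGLI2. MUC1, the membrane mucin, read 24.1, 20.4 and 20.5 FPKM in iEV and 3.54, 3.38 and 3.93 FPKM in iGLI2 (log2 fold change -2.29, SE 0.09, limma adjusted p = 0.000131). MUC1 is also 1 of the 7 ductal markers. PODXL, a sialomucin, rose from 8.75 ± 1.36 to 21.9 ± 1.66 FPKM and CD44, the hyaluronan receptor, from 40.1 ± 3.62 to 73.3 ± 1.99 FPKM (limma adjusted p = 0.00138 for both). The galectins LGALS1 and LGALS3, which bind galactose-containing chains, fell by 0.53 and 0.55 on the log2 scale (limma adjusted p = 0.0361 and 0.00417).

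**Figure D5:**
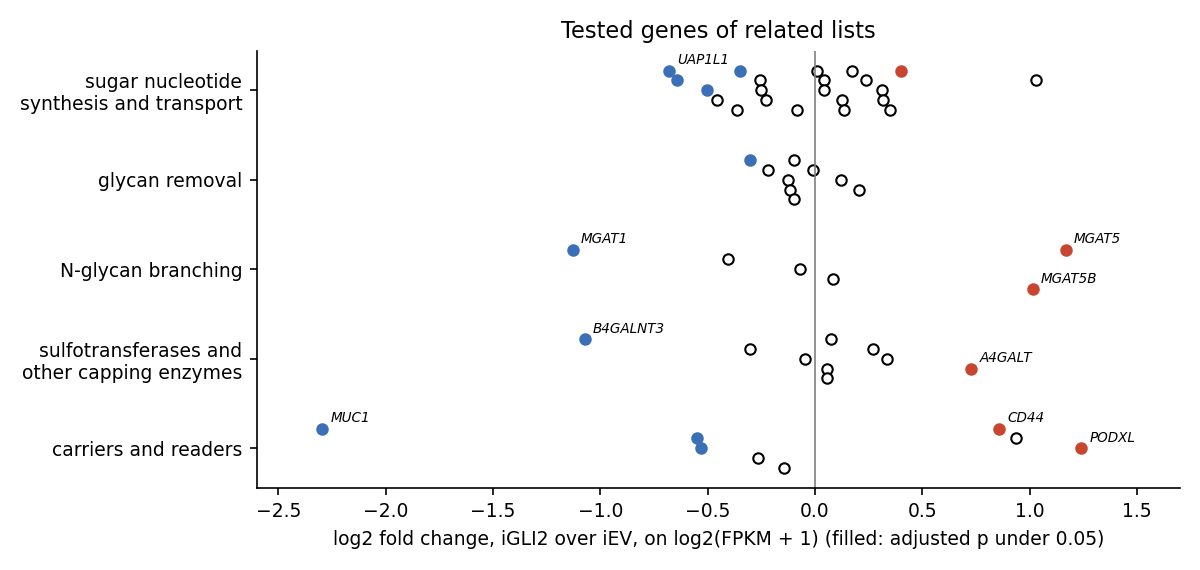
The log2 fold change (horizontal, on the log2(FPKM + 1) scale) of each tested gene in the 5 related lists (rows), with filled red and blue points for genes higher and lower in iGLI2 at an adjusted p under 0.05. MUC1 lies farthest left at -2.29 and PODXL farthest right at 1.24.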

How the data were processed

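YAPC cells were sequenced after 6 days in Dox as 6 Illumina TruSeq RNA libraries, 3 iEV and 3 iGLI2, and groups and replicate numbers were taken from the sample titles. Per the methods and the submitters' processing notes, the authors used Trimmomatic for trimming, TopHat2 for alignment to hg19 and Cuffdiff 2.1.1 for expression. The deposited table has 27024 entries of FPKM, a unit that its header does not name and that was taken from the values and the tools. The annotation, multi-mapping and strand settings are not given in the sources used here. Entries outside primary chromosomes (1252) and lower entries of a repeated name (330) were dropped, 27 names were written as dates by a spreadsheet, and 0 value columns lacked a sample.

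The test ran on log2(FPKM + 1) over 12493 genes that averaged 1 FPKM or more, with limma 3.58.1 in R 4.3.3 (two-sided, condition as the only term, intensity trend, Benjamini-Hochberg over all genes tested, threshold 0.05). Fold changes on this scale understate those of low genes. An exact permutation test of 3 against 3 cannot go below p = 0.1, so none is given. Python 3.11.15, pandas 2.3.3 and matplotlib 3.10.9 were used for tables and plots, and promoters came from RefSeq (GRCh38.p14), a build used for these sequences only. The glycosyltransferases and the related lists were chosen with earlier results of these data known. Named were every called member, the 2 most abundant uncalled members of each step and any uncalled one with an absolute log2 fold change of at least 0.58, ST6GALNAC1, members under the filter with at least 0.3 FPKM in 1 group and group means that differ by 3 times or more, called genes of the lists (at most 4 in each direction) and GLI2. GALNT1, GCNT1, GCNT3, FUT3, FUT5, FUT6, the merged GALNT4 entry and the members listed at 0 were added after their values were seen. The ratios of 1 gene to another were not among the planned results. Alternatives were a pseudocount of 0.1, no filter, a filter at 5 FPKM, upper quartile scaling, quantile normalization, small RNA genes left out with rescaling, no trend, the replicate number as a block, and each library left out. Leaving out replicate 1 of both groups was added after seeing the data.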

Additional observations from a re-analysis of the deposited data

Results flagged for a closer look

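The 27 genes of the set that lay under the filter of 1 FPKM entered no comparison. When the filter was left out 4 of them passed the test, 2 higher and 2 lower in iGLI2. Another 3 were at 0 in every library and could not be tested. In that setting 15.1% of all genes passed, so the 4 calls are not read as a result about the set. The 2 higher ones, ST3GAL6 and ST6GALNAC3, were flagged because their groups did not overlap. The rule also asked for a mean of at least 0.3 FPKM in iGLI2 and at least 3 times that of iEV. Their separation is therefore not a further result. ST3GAL6 averaged 0.219 FPKM in iEV and 1.71 FPKM in iGLI2, and without the filter its limma adjusted p was 0.0204. ST6GALNAC3 averaged 0.0564 FPKM in iEV and 0.849 FPKM in iGLI2, and without the filter its limma adjusted p was 0.0147. ST6GALNAC5 (0.438 FPKM in iEV, 0.0432 FPKM in iGLI2) and B3GNT4 (0.587 and 0.271 FPKM), the latter named after its values were seen, were lower, with limma adjusted p = 0.0432 and 0.0378. Exons of B3GNT4 overlap DIABLO and other coding genes on the opposite strand. No fold is given, since the levels are near 0 in 1 or both groups and the read numbers behind them are unknown.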

How the results depend on the processing

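Of the 16 called glycosyltransferases, 10 stayed past the threshold in every setting that tested them, and none changed direction in any setting run. Against 16 calls (11 higher, 5 lower) among the glycosyltransferases, 2742 among all genes and 16 in the related lists, leaving out 1 library gave 10 to 22 calls (7 to 13 higher, 3 to 9 lower) and 1223 to 3753 among all genes. Leaving out replicate 1 of both groups gave 32 calls (18 higher, 14 lower), 5467 among all genes and 30 in the related lists, and all 16 calls were among the 32. With the replicate number as a block there were 24 calls (13 higher, 11 lower) and 3928 among all genes. The numbers were not taken as pairs, since the labels do not say that libraries of the same number belong together. Deviations from the group means correlated at 0.204, 0.092 and 0.028 for numbers 1, 2 and 3. The value for number 1 was the highest of all pairings, while iEV replicate 2 correlated best with iGLI2 replicate 3 (0.117). Replicate 1 also stood apart within both groups, and whether its libraries shared an origin was not tested. The block added FUT4, GALNT1, GALNT2, GALNT3, GALNT11, GALNT12, GCNT1 and ST6GALNAC6 and lost none. Scaling moved the calls to 17 under upper quartile and quantile normalization (ST3GAL4 added) and to 20 (15 higher, 5 lower) with small RNA genes left out, where 59.3% of the calls among all genes were higher, against 46%. The microRNA gene MIR4461 took 42.6% to 45.4% of the summed FPKM in iEV and 35.7% to 37.7% in iGLI2. Without a filter, 20 of 73 genes were called (27.4%, against 15.1% of all genes), and with the filter raised to 5 FPKM 13 of 34 (38.2%, against 21.2%). The pseudocount of 0.1 and the fit without trend each gave 16 calls. The cause of these shifts was not tested, and read depth, which would set the precision of low genes, is unknown.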
